A study of Mus with 3 samples.

Results

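A set of genes that describe how tumor macrophages handle arginine, restrain or recruit T cells and remodel tissue was followed in MC38 tumors of mice whose T cells carried less or more of the retinoic acid receptor RARα. The genes were Arg1, Nos2, Ass1, Cd274, Il1b, Cxcl9, Cxcl10, Cxcl16, Chil3 and Mmp12, which are 10 of the 32285 genes in the count matrix and were chosen by name. Macrophages were taken as called cells with 1 hashtag, no T cell receptor clonotype, 5 or more UMIs (unique molecular identifiers, each standing for 1 captured RNA molecule) summed over C1qa, C1qb and C1qc, and 3 or more UMIs of Lyz2. This gate held 59 of the 4925 cells with 1 hashtag, namely 21 WT, 27 RARα-KO and 11 RARα-TG cells. Just inside it, 5 cells had 5 to 7 C1q UMIs and 3 had 3 to 5 Lyz2 UMIs, and just outside, 3 cells had 3 or 4 C1q UMIs and 9 had enough C1q but fewer than 3 Lyz2 UMIs. Mouse genes are placed on GRCm38, the build of the counts, with their spans from RefSeq: Arg1 (ENSMUSG00000019987) at chr10:24915207-24927470, Nos2 (ENSMUSG00000020826) at chr11:78920787-78960226, Ass1 (ENSMUSG00000076441) at chr2:31470270-31520670 and Cd274 (ENSMUSG00000016496) at chr19:29362107-29388095. Il1b (ENSMUSG00000027398) lies at chr2:129364569-129371164, Chil3 (ENSMUSG00000040809) at chr3:106147554-106167564 and Mmp12 (ENSMUSG00000049723) at chr9:7344397-7360461. Of the chemokine genes, Cxcl9 (ENSMUSG00000029417) at chr5:92321331-92328079 and Cxcl10 (ENSMUSG00000034855) at chr5:92346638-92348889 are close neighbours, and Cxcl16 (ENSMUSG00000018920) lies at chr11:70454389-70459984.

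MC38 is a mouse colon cancer line, and the tumors were taken at day 16 from animals labelled as C57BL/6. RARα-KO mice carried the dLck-Cre transgene, in which the distal Lck promoter drives Cre in T cells, and floxed Rara alleles (Rara L/L). RARα-TG mice carried Rara under the CD2 promoter (CD2-Rara), which is active in T cells and other lymphocytes. The study used both C57BL/6 and dLck-Cre mice as WT controls, and which of them gave the WT tumor cells, as well as the number of mice behind each sample, is not given in the sources used here. Cells of each genotype were tagged with their own hashtag antibody before the sort. Sorted CD45.2+ CD3+ T cells (30000 for each genotype) were joined with 10000 total tumor cells, which the study's methods describe as unsorted and the sample labels as sorted, and all cells were run as 1 droplet library read from the 5′ end. Macrophages therefore came from the total cells, and the mixing fixed their share. The sample labels also name spleen, naive CD8 T cells and an in vitro activation, whereas the cells held tumor cell and macrophage transcripts.

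Each genotype was 1 sample, so no test between genotypes was possible and no p-value is given. Levels are given as CPM, the UMIs of a gene per 1000000 UMIs of the same cells, with exact Poisson 95% intervals. Shares of cells with a UMI have exact Clopper-Pearson 95% intervals. These intervals cover counting error only, not the variation between mice, tumors or cells. A log2 ratio was called when its absolute value was 1 or more, its exact binomial 95% interval left out 0, and the gene had a mean of 0.1 or more UMIs per cell in 1 of the genotypes compared. Genes that passed this filter are said to be tested. In these cells, fewer expressing cells and less RNA per cell both lower the CPM, so shares and levels are given together.

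As background, arginase 1, the product of Arg1, splits arginine into ornithine and urea. Inducible nitric oxide synthase, the product of Nos2, turns the same amino acid into nitric oxide and citrulline, and argininosuccinate synthase, encoded by Ass1, starts the path that makes arginine again from citrulline. Both uses of arginine can starve or inhibit T cells in tumors, and Arg1 and Nos2 are widely used as marks of alternatively and classically activated macrophages. Interferon gamma from T cells and natural killer cells induces Nos2, the checkpoint ligand gene Cd274 and the chemokine genes Cxcl9 and Cxcl10, whose products draw in T cells through CXCR3.

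The median macrophage held 10031 UMIs for WT, 8069 for RARα-KO and 12673 for RARα-TG, and the summed depth was 233687, 240287 and 124433 UMIs. All 12 macrophage markers were found in each genotype, with summed levels of 11943 CPM in WT cells, 12856 CPM in RARα-KO cells and 11982 CPM in RARα-TG cells. T cell markers summed to 103 CPM in WT cells, 16.6 CPM in RARα-KO cells and 8.04 CPM in RARα-TG cells, with 6, 3 and 1 of 9 markers detected, and neutrophil markers to 351, 62.4 and 121 CPM, with 4, 3 and 3 of 9 detected. Dendritic markers summed to 34.2, 20.8 and 88.4 CPM, with 4, 3 and 5 of 12 detected. The part of these transcripts in the differences between genotypes was not tested, and 2 of the 59 cells held 2 or more T cell UMIs. Rara itself measured 84.1 CPM (77.8-90.8) in WT T cells, 77.6 CPM (72.0-83.7) in RARα-KO T cells and 243 CPM (226-262) in RARα-TG T cells. Counts from the 5′ end need not show the deletion, so only the transgene was checked by them. In macrophages Rara had 15, 6 and 5 UMIs in WT, RARα-KO and RARα-TG.

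Arg1 was detected in most macrophages of every genotype. It measured 1707 CPM (1544-1883) for WT, 2227 CPM (2042-2423) for RARα-KO and 3841 CPM (3505-4202) for RARα-TG, from 399, 535 and 478 UMIs. A UMI of Arg1 was present in 66.7% of WT macrophages (43.0-85.4), 70.4% of RARα-KO macrophages (49.8-86.2) and 100% of RARα-TG macrophages (71.5-100). Levels differed widely among the cells of 1 genotype, and the ranges of the genotypes overlapped. Per cell, Arg1 ran from 0 to 8674 CPM with a median of 706 in WT, from 0 to 8750 CPM with a median of 1507 in RARα-KO, and from 74.9 to 9060 CPM with a median of 3931 in RARα-TG. Against WT, RARα-TG was called higher with a log2 ratio of 1.17 (0.98-1.37), and RARα-KO was not called at 0.38 (0.19-0.57). With every cell thinned to 2000 UMIs the RARα-TG ratio was 0.99, just under the 2-fold limit, and the shares with Arg1 were 58.2% for WT, 68.1% for RARα-KO and 89.1% for RARα-TG.

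Nos2 was highest in RARα-KO and had 0 UMIs in RARα-TG. It measured 89.9 CPM (55.6-137) in WT cells, 208 CPM (154-274) in RARα-KO cells and 0 CPM in RARα-TG cells, where 0 UMIs allowed up to 29.6 CPM. The gene was found in 5 of 21 WT macrophages (23.8%), 13 of 27 RARα-KO macrophages (48.1%) and 0 of 11 RARα-TG macrophages, which allows a share of up to 28.5%. Few cells carried it: of 21 Nos2 UMIs in WT, 10 came from 1 cell, and of 50 in RARα-KO, 16 came from 1 cell. RARα-KO macrophages were called higher than WT, with a log2 ratio of 1.21 (0.45-2.02), and without the top cell of each genotype it was 1.68. RARα-TG was called lower, at most -1.90 with the floor of 3 UMIs in place of 0, that is at least 3.73-fold. Without the top WT cell the bound was -1.04, and the call held. After thinning to 2000 UMIs, which leaves out cells below that depth, the RARα-KO ratio was 0.95, and as a mean of per-cell CPM it was 0.73, so neither was called, and shares were 11.8% in WT and 24.7% in RARα-KO.

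Ass1 was nearly level between WT and RARα-KO and lower in RARα-TG. Its values were 740 CPM (634-859), 836 CPM (725-960) and 233 CPM (156-335), with a UMI in 76.2%, 74.1% and 45.5% of macrophages. The log2 ratio was 0.18 (-0.12 to 0.48) for RARα-KO and -1.67 (-2.29 to -1.09) for RARα-TG, and the latter was called. In RARα-TG macrophages, then, Arg1 was higher and Nos2 and Ass1 were lower than in WT, although the Arg1 ratio was not called after thinning. Asl, a further gene of arginine metabolism, had 5 UMIs in RARα-TG and 7 UMIs in WT. Its log2 ratio of 0.42 was not called and its interval included 0, so the lower level of Ass1 is a result for that gene alone.

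**Figure D1:**
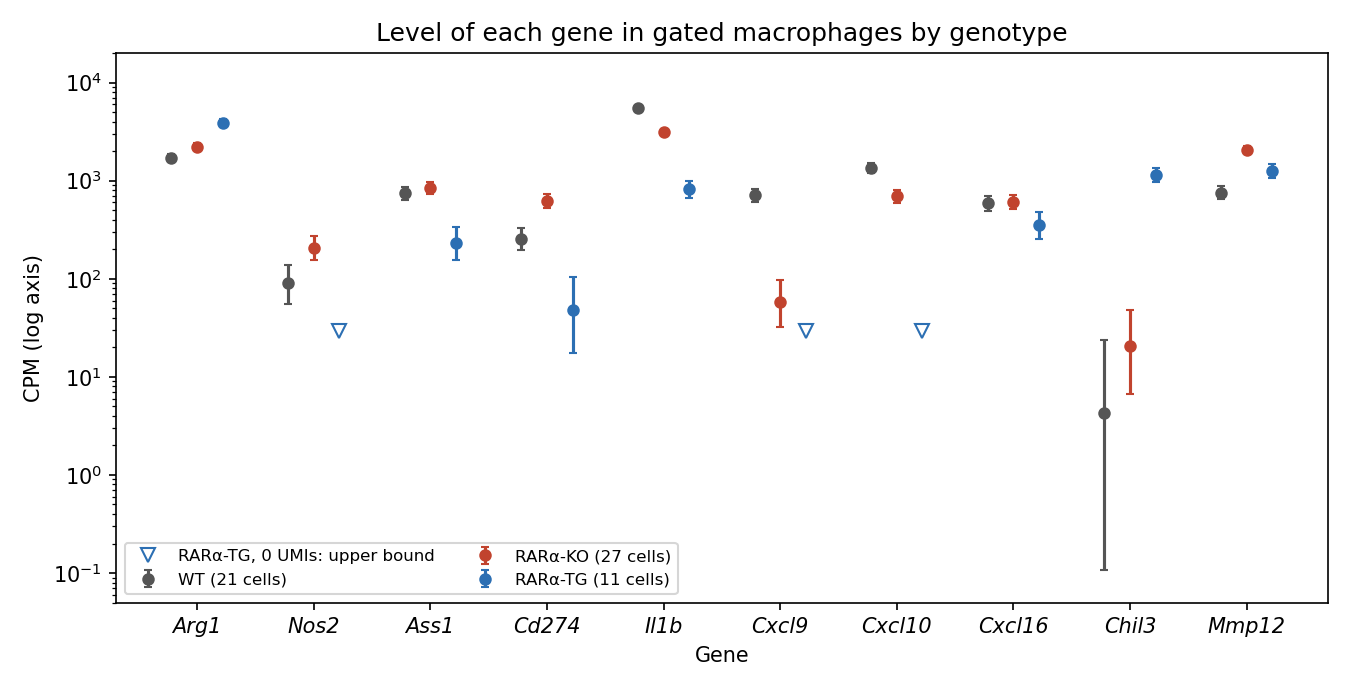
CPM on a log axis for the 10 genes in gated macrophages of WT (grey, 21 cells), RARα-KO (red, 27 cells) and RARα-TG (blue, 11 cells), with exact Poisson 95% intervals. Open triangles mark the upper bound of 29.6 CPM for Nos2, Cxcl9 and Cxcl10, which had 0 UMIs in RARα-TG. Arg1 and Chil3 were highest in RARα-TG, whereas Nos2, Ass1, Cd274 and Il1b were lowest there.

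Cd274 encodes PD-L1, the ligand through which myeloid and tumor cells inhibit T cells that carry PD-1. It followed the order of Nos2, with 257 CPM (196-330) in WT cells, 624 CPM (528-733) in RARα-KO cells and 48.2 CPM (17.7-105) in RARα-TG cells. A UMI was present in 61.9%, 74.1% and 36.4% of macrophages, and in 38.6%, 55.1% and 8.97% after thinning. Both log2 ratios were called, at 1.28 (0.84-1.74) for RARα-KO and -2.41 (-3.91 to -1.21) for RARα-TG. In RARα-TG only 6 UMIs stood behind the level, and in RARα-KO 36 of 150 UMIs came from 1 cell, without which and without the top WT cell the ratio was 1.36. Taking the mean of per-cell CPM, which gives shallow and deep cells the same weight, brought the RARα-KO ratio to 0.67, and thinning to 2000 UMIs to 0.72, and neither was called.

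Il1b, the gene of interleukin-1β, fell short of a call in RARα-KO and was called lower in RARα-TG. It measured 5465 CPM (5169-5773) for WT, 3109 CPM (2890-3340) for RARα-KO and 820 CPM (668-995) for RARα-TG. The log2 ratios were -0.81 (-0.95 to -0.68) and -2.74 (-3.04 to -2.45). Shares with a UMI differed less than the levels did, at 76.2%, 66.7% and 63.6%, and the highest cell held 25343 CPM in WT cells, 20229 CPM in RARα-KO cells and 2633 CPM in RARα-TG cells. The summed neutrophil markers were also highest in WT macrophages. Il1r2, the interleukin-1 decoy receptor gene, gave 312 of their 351 CPM in WT, against 6 UMIs in RARα-KO and 12 UMIs in RARα-TG. S100a9, Cxcr2, Retnlg, G0s2 and Mmp9 had 0 UMIs in macrophages of all 3 genotypes. S100a8 and Csf3r were detected in each genotype and Hdc in WT alone. Hdc, like Il1r2, was called lower in RARα-KO. The part of neutrophil transcripts in the Il1b levels was not tested.

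The CXCR3 ligand genes were detected in WT and RARα-KO and had 0 UMIs in RARα-TG. Cxcl9 measured 710 CPM (606-827) in WT and 58.3 CPM (31.9-97.8) in RARα-KO, although 6 cells carried it in each. In WT, 3 cells held 89.2% of its 166 UMIs. Its log2 ratio in RARα-KO was -3.61 (-4.51 to -2.82) and was called, and in RARα-TG it was at most -4.88. Cxcl10 measured 1339 CPM (1195-1496) in WT and 695 CPM (594-809) in RARα-KO, found in 10 of 21 and 12 of 27 cells. A single cell held 34.2% of its UMIs in WT and 41.3% in RARα-KO. The RARα-KO ratio of -0.95 (-1.23 to -0.67) missed the call, and the RARα-TG ratio was at most -5.80. Free RNA in barcodes without a cell held Cxcl10 at 155 CPM and Cxcl9 at 17.1 CPM, and both genes still had 0 UMIs among the 124433 UMIs of RARα-TG macrophages.

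Cxcl16, whose product binds CXCR6 on T cells and also takes up oxidized lipid at the cell surface, had no called ratio in the gate. It measured 586 CPM (492-693) for WT, 608 CPM (513-715) for RARα-KO and 354 CPM (257-475) for RARα-TG, and 90.5%, 81.5% and 90.9% of macrophages had a UMI. Its log2 ratio was 0.05 (-0.30 to 0.40) for RARα-KO and -0.73 (-1.25 to -0.23) for RARα-TG, where the interval left out 0 but the size missed the 2-fold limit. Unlike Cxcl9 and Cxcl10, it was thus found in nearly all RARα-TG macrophages.

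Chil3 encodes a chitinase-like protein of monocytes and alternatively activated macrophages. It had 1 UMI in WT cells, 5 UMIs in RARα-KO cells and 142 UMIs in RARα-TG cells, that is 4.28 CPM (0.108-23.8), 20.8 CPM (6.76-48.6) and 1141 CPM (961-1345). The log2 ratio for RARα-TG was called at 8.06 (5.56-13.4), with a width set by the single WT UMI, and the ratio for RARα-KO was 2.28 (-0.88 to 7.85). In RARα-TG, 5 of 11 cells carried Chil3 and 1 of them held 93 of the 142 UMIs, and without that cell and the single WT cell the ratio was at least 4.95. Monocyte markers summed to 1643 CPM for WT, 1894 CPM for RARα-KO and 2523 CPM for RARα-TG, but Fn1 alone gave 2274 CPM of the RARα-TG sum and 963 CPM of the WT sum. Ly6c2 and Plac8 had 0 UMIs and Ms4a4c 1 UMI in RARα-TG, so 3 of the 6 monocyte markers were called lower there and 2 higher (Ccr2 and Fn1). The close Chil3 paralog Chil4 has a similar sequence, so reads shared between them make these counts uncertain.

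Mmp12, the macrophage metalloelastase that cuts elastin and other matrix proteins, measured 753 CPM (646-873) for WT, 2060 CPM (1883-2250) for RARα-KO and 1254 CPM (1065-1467) for RARα-TG. The RARα-KO ratio was 1.45 (1.20-1.71) and was called, and the RARα-TG ratio was 0.74 (0.42-1.05). Cells with a UMI were not more frequent in RARα-KO, at 29.6% against 42.9% in WT and 63.6% in RARα-TG. In RARα-KO 1 cell held 231 of 495 UMIs and 3 cells held 86.9%, and after thinning the ratio was 0.64. The cell with most Mmp12 was also the RARα-KO cell with most Nos2 (16 UMIs) and most Cd274 (36 UMIs), and it was the deepest of its genotype with 26731 UMIs.

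In RARα-KO macrophages, 3 of the 10 genes were called higher (Nos2, Cd274 and Mmp12), 1 was called lower (Cxcl9) and 6 were not called. Among 6139 genes that passed the filter on low values, 4.77% were called higher and 5.82% lower. RARα-TG macrophages had 2 of the 10 called higher (Arg1 and Chil3), 6 called lower (Nos2, Ass1, Cd274, Il1b, Cxcl9 and Cxcl10) and 2 not called, where 4.29% of 5524 genes were called higher and 3.48% lower. All 10 genes passed the filter in both comparisons, Chil3 in RARα-KO by its 5 UMIs over 27 cells. The median log2 ratio of the 10 genes was 0.28 in RARα-KO and -1.78 in RARα-TG, with the 3 genes at 0 UMIs set at their bound, beside -0.14 and -0.09 over all genes tested. Both comparisons share the WT cells.

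**Figure D2:**
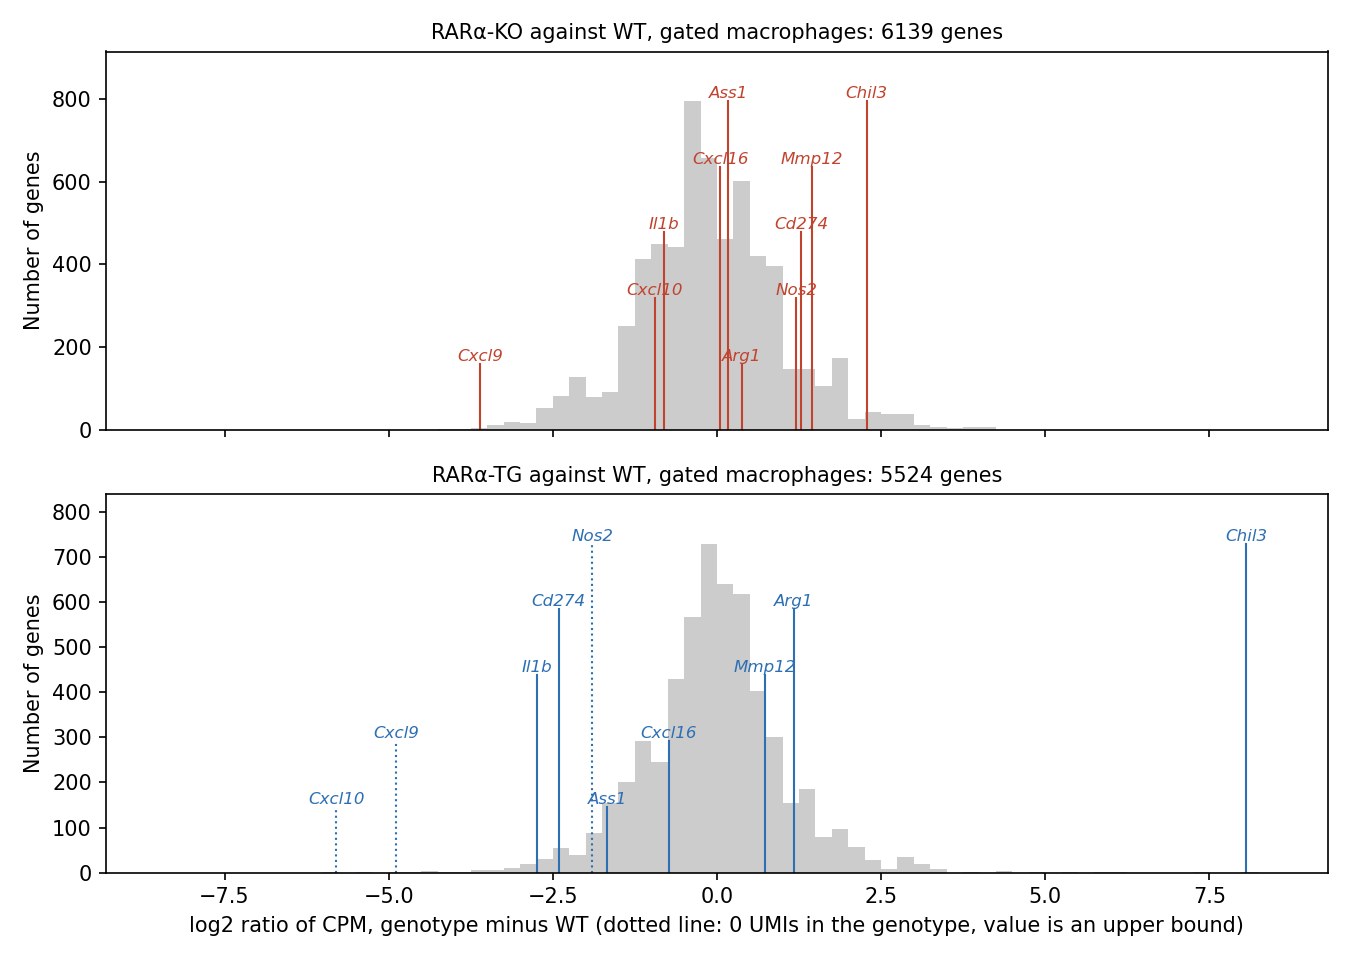
Number of genes by log2 ratio of CPM to WT in gated macrophages, for RARα-KO (upper panel, 6139 genes) and RARα-TG (lower panel, 5524 genes). Labelled lines mark the 10 genes, dotted where the genotype had 0 UMIs and the value is an upper bound. In RARα-KO most of the 10 lie near the bulk of genes, and in RARα-TG Cxcl9 and Cxcl10 lie at its lower edge and Chil3 at its upper edge.

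Many single macrophages carried both Arg1 and Nos2. Among the 59 cells, 29 had Arg1 only, 3 had Nos2 only, 15 had both and 12 had neither. Arg1 was present in 83.3% of the cells with Nos2 (58.6-96.4) and in 70.7% of those without (54.5-83.9), so the intervals overlap and exclusion of one gene by the other was not seen. By genotype, both genes were found in 4 WT cells and 11 RARα-KO cells. Cells with Nos2 only numbered 1 in WT and 2 in RARα-KO. All 11 RARα-TG cells had Arg1 only. When a gene needed 2 or more UMIs to count, 11 cells had both and 1 had Nos2 only.

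Depth was not equal between these groups of cells. The median depth was 11765 UMIs in cells with both genes, 9695 in cells with Arg1 only, 8069 in those with Nos2 only and 6311.5 in those with neither. Among the cells above the median depth 11 had both, 15 had Arg1 only, 1 had Nos2 only and 2 had neither, whereas at or below it 4 had both and 10 had neither. In 1 random thinning to 2000 UMIs, 7 of 53 cells kept both genes and 2 kept Nos2 only. Detection of each gene thus moved with depth, and its part in the pairing of Arg1 and Nos2 was not tested beyond these values.

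The gate takes only part of the macrophage cluster, so the same genes were also read in cells of that cluster outside the gate. Cells were clustered on all variable genes, and the cluster that held 58 of the 59 gated macrophages also held 167 cells with no clonotype that missed the gate, namely 55 WT, 89 RARα-KO and 23 RARα-TG cells. These C1q-low cells had 0 C1q UMIs in 137 cases. Their summed macrophage markers were 3165 CPM for WT, 3137 CPM for RARα-KO and 2396 CPM for RARα-TG, and their monocyte markers were 2751, 2971 and 5025 CPM. T cell markers in them summed to 14.8, 348 and 8.65 CPM, and the part of these in the values was not tested. Arg1 and Mmp12 were among the genes that led the cluster, so the presence of those genes in it is no finding. The C1q-low cells share no cell with the gated set but come from the same 3 samples.

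In C1q-low cells Nos2 kept its order, with 142 CPM (105-188) for WT, 485 CPM (429-547) for RARα-KO and 8.65 CPM (0.219-48.2) for RARα-TG, from 48, 268 and 1 UMIs. It was found in 14 of 55, 36 of 89 and 1 of 23 cells. Cd274 did as well, at 375 CPM (313-447), 842 CPM (767-922) and 173 CPM (106-267). The RARα-KO log2 ratios were 1.78 (1.33-2.25) for Nos2 and 1.17 (0.88-1.46) for Cd274, and the RARα-TG ratios were -4.04 (-9.37 to -1.49) and -1.12 (-1.88 to -0.43). Ass1 was also lower in RARα-TG there, at 320 CPM against 851 CPM in WT, as was Cxcl9, at 60.5 CPM against 328 CPM. Cxcl16 was 199 CPM against 479 CPM in WT, a RARα-TG ratio of -1.27 (-1.97 to -0.63) that was called, and for RARα-KO it was 0.41 (0.14-0.69). Cxcl10 again had 0 UMIs in RARα-TG against 2311 CPM in WT, although 1 WT cell gave 45.4% of the WT UMIs. For RARα-KO it was 509 CPM, a ratio of -2.18 (-2.38 to -1.98) that was called.

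Other genes differed between the gated and the C1q-low cells. Cxcl9 was 302.5 CPM in RARα-KO and 328 CPM in WT among C1q-low cells, a log2 ratio of -0.12 (-0.47 to 0.24), in contrast to -3.61 in the gate. Mmp12 was 1089 CPM in RARα-KO and 1093 CPM in WT, and only 95.1 CPM in RARα-TG, where the ratio was -3.52 (-4.54 to -2.67). Chil3 was 1217 CPM in WT cells, 214 CPM in RARα-KO cells and 822 CPM in RARα-TG cells. Its RARα-KO ratio of -2.51 (-2.82 to -2.21) was called, and its RARα-TG ratio was -0.57 (-0.90 to -0.24). The RARα-TG direction rested on 1 WT cell with 281 of the 412 WT UMIs. Without it WT had 396 CPM and the RARα-TG ratio was 1.05 (0.66-1.45). Without the top RARα-TG cell as well it was 0.60 (0.14-1.04). Il1b was 8017, 3081 and 6106 CPM. Its RARα-KO ratio of -1.38 (-1.47 to -1.29) was called, and its RARα-TG ratio was -0.39 (-0.51 to -0.27). Arg1 was 1900 CPM for WT, 1467 CPM for RARα-KO and 2889 CPM for RARα-TG, and its RARα-TG ratio of 0.60 (0.41-0.80) was not called.

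**Figure D3:**
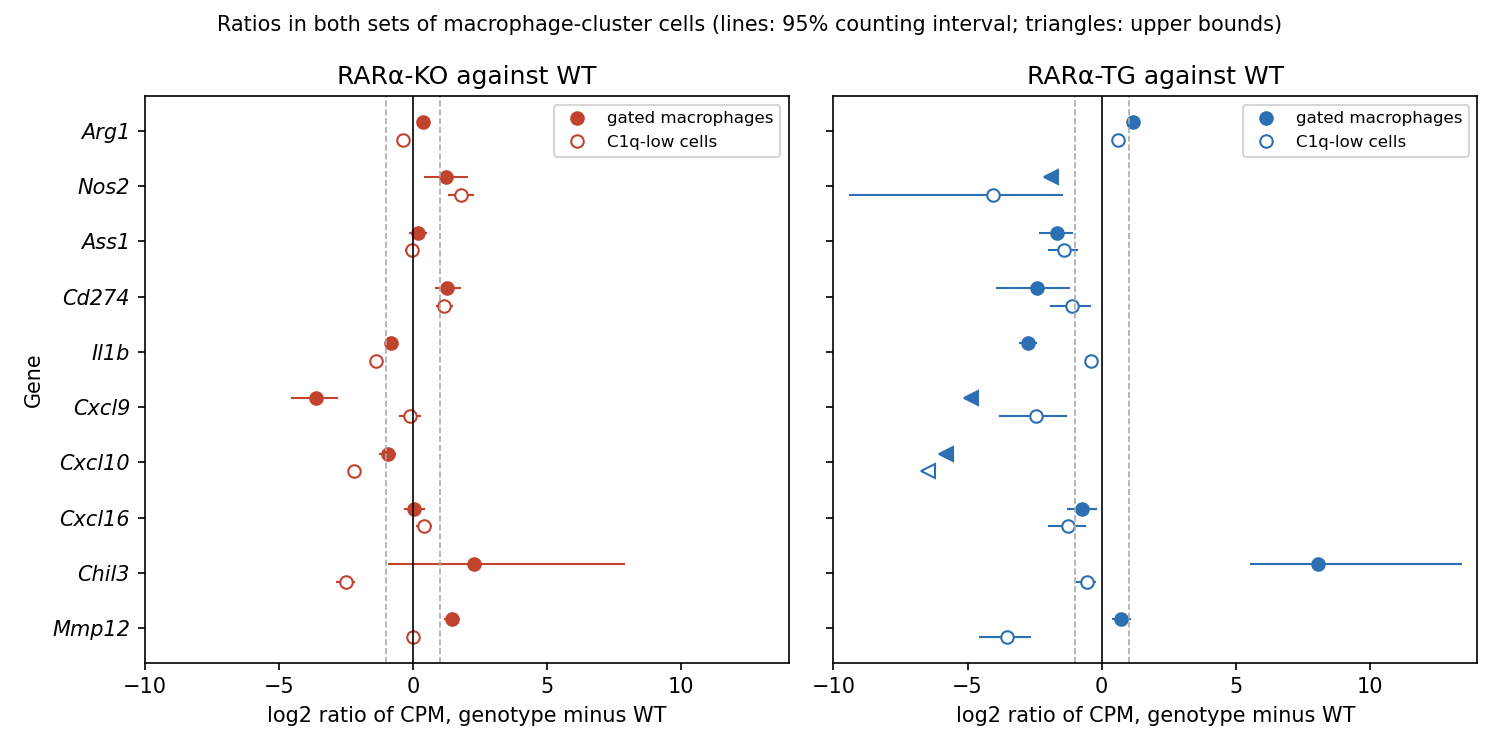
Log2 ratio of CPM to WT for the 10 genes in gated macrophages (filled) and C1q-low cells (open), for RARα-KO (left) and RARα-TG (right), with 95% counting intervals as lines, upper bounds as triangles and dashed lines at -1 and 1. Nos2 and Cd274 have ratios of the same sign in both sets of cells, whereas Mmp12 in RARα-TG lies at 0.74 in the gate and -3.52 outside it, and Cxcl9 in RARα-KO at -3.61 and -0.12.

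Arg1 and Nos2 were also detected together in the C1q-low cells. Of 167 cells, 48 had Arg1 only, 12 had Nos2 only, 39 had both and 68 had neither. Arg1 was present in 76.5% of cells with Nos2 (62.5-87.2) and in 41.4% of those without (32.3-50.9), and these intervals did not overlap. After 1 random thinning to 2000 UMIs these shares were 73.3% (54.1-87.7) and 46.5% (37.1-56.1), with overlapping intervals. Without thinning they were 85.7% (57.2-98.2) and 46.3% (30.7-62.6) within WT, which overlap. Within RARα-KO they were 72.2% (54.8-85.8) and 28.3% (16.8-42.3). The median depth was 7867 UMIs in C1q-low cells with both genes and 4595.5 in those with neither. Cells with Nos2 only were in WT (2) and RARα-KO (10), and the single RARα-TG cell with Nos2 had Arg1 as well.

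**Figure D4:**
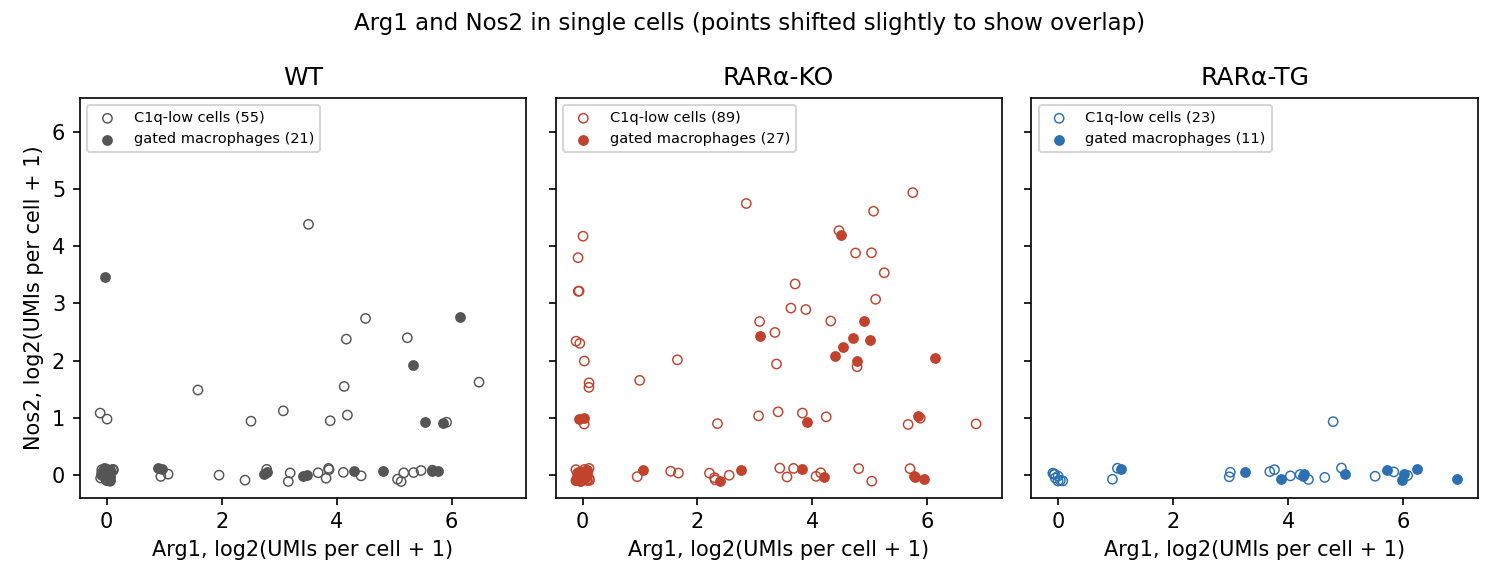
Arg1 (x axis) and Nos2 (y axis) as log2(UMIs per cell + 1) in single cells of WT, RARα-KO and RARα-TG, with gated macrophages filled and C1q-low cells of the same cluster open. Cells with both genes are seen in WT and RARα-KO, 15 of them gated, and all 11 gated RARα-TG macrophages lie on the Arg1 axis at 0 Nos2.

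Cd274 and Ass1 were among the genes found more often in macrophages with Nos2 than in those without. Cd274 was present in 94.4% of gated cells with Nos2 (72.7-99.9) and 48.8% without (32.9-64.9), and in the C1q-low cells the shares were 84.3% (71.4-93.0) and 57.8% (48.2-66.9). Ass1 was in 94.4% of gated cells with Nos2 (72.7-99.9) and 58.5% without (42.1-73.7), and these intervals overlap slightly. In C1q-low cells those shares were 72.5% (58.3-84.1) and 56.0% (46.5-65.2), which overlap. Cxcl16 was in 76.5% of C1q-low cells with Nos2 (62.5-87.2) and 50.9% without (41.4-60.3), and Mmp12 in 51.0% (36.6-65.2) and 21.6% (14.5-30.1). In the gate the shares were 100% and 80.5% for Cxcl16 and 44.4% and 39.0% for Mmp12, with overlapping intervals. Chil3 was not more frequent with Nos2, at 29.4% and 30.2% of C1q-low cells. Within RARα-KO, Cd274 was present in 91.7% of C1q-low cells with Nos2 (77.5-98.2) and 58.5% without (44.1-71.9), and within WT in 71.4% (41.9-91.6) and 63.4% (46.9-77.9), where the intervals overlap. Across the 59 gated cells, Spearman's rho of per-cell CPM was 0.50 for Nos2 and Cd274 and 0.13 for Nos2 and Arg1, and over the 167 C1q-low cells it was 0.33 and 0.30. All cells of these correlations share 1 library, their genotypes are mixed and detection moves with depth.

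Mmp12 was more frequent in cells with Arg1 and Cxcl9 in cells with Cxcl10, though the intervals overlapped in part of these comparisons. Mmp12 was present in 22 of 44 gated cells with Arg1 (34.6-65.4%) and 13.3% of those without (1.66-40.5), where the intervals overlap. In C1q-low cells it was present in 49.4% (38.5-60.4) and 10.0% (4.42-18.8). It also tracked depth, with a rho of 0.64 between its CPM and the UMIs of a gated cell and of 0.15 in C1q-low cells. Cxcl9 was present in 45.5% of gated cells with Cxcl10 (24.4-67.8) and 5.41% without (0.661-18.2), where all 11 RARα-TG cells had neither gene. In C1q-low cells it was present in 38.0% (24.7-52.8) and 18.8% (12.2-27.1), which overlap. By genotype these C1q-low shares were 40.9% and 9.09% in WT, and 35.7% and 29.5% in RARα-KO. Cxcl9 was less frequent in cells with Arg1, at 11.4% (3.79-24.6) against 46.7% (21.3-73.4) in the gate, but these intervals overlap. Among C1q-low cells 17 of 87 with Arg1 (11.8-29.4%) and 24 of 80 without (20.3-41.3%) carried it, and in WT alone 22.6% and 20.8%. Its rho with Arg1 was -0.44 in gated and -0.19 in C1q-low cells.

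Levels of the other genes were also read in cells grouped by their Arg1 and Nos2 UMIs. These groups differ in genotype: all 11 RARα-TG cells were among the 29 gated cells with Arg1 only, and 11 of the 15 with both were RARα-KO. Cd274 measured 601 CPM in gated cells with both, 175 CPM with Arg1 only, 868 CPM with Nos2 only and 265 CPM with neither, and the C1q-low cells had 815, 489, 1047 and 420 CPM in that order. Mmp12 was 2824 CPM in gated cells with both and 901 CPM with Arg1 only, and had 0 UMIs in the 3 cells with Nos2 only. Cxcl9 was lowest in gated cells with both, at 10.1 CPM against 175 CPM with Arg1 only and 739 CPM with neither. In C1q-low cells it was 199, 169 and 277 CPM for these groups. Within WT, gated cells with both genes had 255 CPM (136-436) of Cd274 and those with Arg1 only 185 CPM (113-286), and within RARα-KO 722 CPM (591-873) and 446 CPM (286-664), so the intervals overlap in each. Of the Mmp12 UMIs of RARα-KO cells with both genes, 3 cells held 430 of 435.

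By rank correlation across the 59 gated cells, among 6222 genes found in 10% or more of them, the genes most like Arg1 were Ctsl (rho 0.61), Msr1 (0.59), Adam8 (0.58), Lgals1 (0.56) and Clic1 (0.56). Ctsl encodes a lysosomal protease and Msr1 a scavenger receptor. In the 167 C1q-low cells the same pairs had rho of 0.44, 0.36, 0.44, 0.33 and 0.19. The genes most like Nos2 were Rbpms (0.59), Ino80d (0.58), Tns3 (0.57), Eno1 (0.56) and Pak1ip1 (0.55), and in C1q-low cells Eno1, a glycolytic enzyme gene, had a rho of 0.41 and the other four between 0.01 and 0.13.

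Few other genes of arginine metabolism were called. For this list and those below, the shares called over all genes tested were 4.77% higher and 5.82% lower in RARα-KO. In RARα-TG they were 4.29% higher and 3.48% lower. Of 15 such genes, 11 were tested in RARα-KO and 10 in RARα-TG. In RARα-KO 0 were called higher and 2 lower, Srm, a spermidine synthase gene, and Gatm, whose enzyme uses arginine to make a creatine precursor. Gatm measured 261 CPM in WT cells, 62.4 CPM in RARα-KO cells and 217 CPM in RARα-TG cells. In RARα-TG 1 gene was called higher, the arginine transporter gene Slc7a2, at 442 CPM against 158 CPM in WT and 171 CPM in RARα-KO, with a log2 ratio to WT of 1.48 (0.85-2.12). Odc1, the ornithine decarboxylase gene, was 514, 325 and 321 CPM, and Gch1, which provides a cofactor of nitric oxide synthase, was 150, 154 and 121 CPM in WT, RARα-KO and RARα-TG.

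Most interferon gamma target genes were, like Nos2 and Cd274, lower in RARα-TG. Of 19 listed, 16 were tested in RARα-KO and 4 were called higher (Socs1, Gbp4, Iigp1 and Igtp) and 0 lower, with a list median of 0.53. In RARα-TG 11 of 16 were called lower and 0 higher, with a median of -1.79. Irf1, an interferon-induced transcription factor gene, measured 330 CPM for WT, 595 CPM for RARα-KO and 40.2 CPM for RARα-TG, and Gbp2, a guanylate-binding protein gene, was 582, 1136 and 48.2 CPM. Their RARα-TG levels were low in C1q-low cells too, where Irf1 was 742 CPM in WT and 17.3 CPM in RARα-TG, and Gbp2 was 892 CPM and 77.8 CPM. In RARα-KO C1q-low cells they were 830 CPM for Irf1 and 1154 CPM for Gbp2.

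Inflammatory genes other than Il1b were mostly lower in RARα-TG. Of 15 tested, 9 were called lower (Tnf, Il1a, Il1rn, Ptgs2, Cxcl2, Cxcl3, Ccl3, Ccl5 and Nfkbiz) and 0 higher, with a list median of -1.98, and in RARα-KO 2 of 17 were called higher (Cxcl1 and Cxcl3) and 4 lower (Tnf, Il6, Il1a and Ccl5), with a median of -0.03. Il1rn, which encodes the interleukin-1 receptor antagonist, measured 1874 CPM in WT cells, 3334 CPM in RARα-KO cells and 402 CPM in RARα-TG cells. Tnf was 1622, 766 and 88.4 CPM, but 352 of its 379 WT UMIs came from 1 cell. Ptgs2, the cyclooxygenase gene, was 1006 CPM for WT, 1136 CPM for RARα-KO and 145 CPM for RARα-TG.

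Genes of alternative activation beside Arg1 and Chil3 rested on few cells. In RARα-TG 4 of 9 tested were called higher (Retnla, Ccl17, Ccl24 and Clec10a) and 1 lower (Stab1), with a list median of 0.77, and in RARα-KO 1 of 7 was called higher (Folr2) and 2 lower (Ccl24 and Pdcd1lg2), with a median of -0.68. Retnla, which encodes a secreted protein of interleukin-4 treated macrophages, had 254 UMIs in RARα-TG and 0 in both other genotypes, but 2 cells carried it and 1 of them held 215. The C1q-low cells of RARα-TG held 1 Retnla UMI. For Ccl17 31 of 41 and for Ccl24 55 of 64 RARα-TG UMIs came from 1 cell. Mrc1, the mannose receptor gene, was 141 CPM in WT cells, 83.2 CPM in RARα-KO cells and 241 CPM in RARα-TG cells.

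Among 12 checkpoint and costimulation ligand genes beside Cd274, of which 9 were tested in each comparison, Tnfsf9 was called higher in both and Pdcd1lg2, the gene of the other PD-1 ligand, was called lower in RARα-KO, with medians of -0.14 and -0.17. Of the matrix protease and inhibitor genes, 4 of 10 were called higher in RARα-KO (Mmp8, Mmp13, Timp2 and Adam17) and 0 lower, with a median of 0.84, but 107 of 140 Mmp13 UMIs and 113 of 155 Timp2 UMIs came from 1 cell. In RARα-TG 2 of 9 were called higher (Mmp19 and Timp1) and 1 lower (Mmp14), with a median of 0.20. Hypoxia genes had 3 of 12 called higher in RARα-KO (Slc2a1, Bnip3 and Adm), with 41 of 44 Adm UMIs in 1 cell, and 2 of 11 called lower in RARα-TG (Egln3 and Ndrg1), with medians of 0.52 and -0.29.

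Across cell classes, the CPM of Arg1 and Nos2 was highest in the macrophage cluster. Dendritic cells, which numbered 46, 36 and 17 with a median depth of 7515, 7424 and 7042 UMIs, had 0 UMIs of Arg1, Nos2 and Chil3 in all genotypes. MC38 or stromal cells, with a median depth of 28335, 30004 and 15285 UMIs, held 1 UMI of Arg1 in WT and 0 in RARα-KO and RARα-TG. Their Nos2 was 4.87 CPM for WT, 5.74 CPM for RARα-KO and 0 CPM for RARα-TG, beside 7.83 CPM in free RNA. In RARα-KO neutrophils Nos2 was 39.0 CPM and Arg1 13.0 CPM, and both were 0 CPM in those of WT and RARα-TG. T cells, with 4720, 4875 and 3604 UMIs in the median, had an Arg1 UMI in 0.536%, 0.684% and 0.906% of cells, far below the macrophage shares, and free RNA in barcodes without a cell held it at 63.4 CPM. Nos2 in T cells was 0.259 CPM for WT, 3.03 CPM for RARα-KO and 0 CPM for RARα-TG. T cells were all cells with a clonotype, among them 14 cells of the macrophage cluster, of which 11 were RARα-KO.

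**Figure D5:**
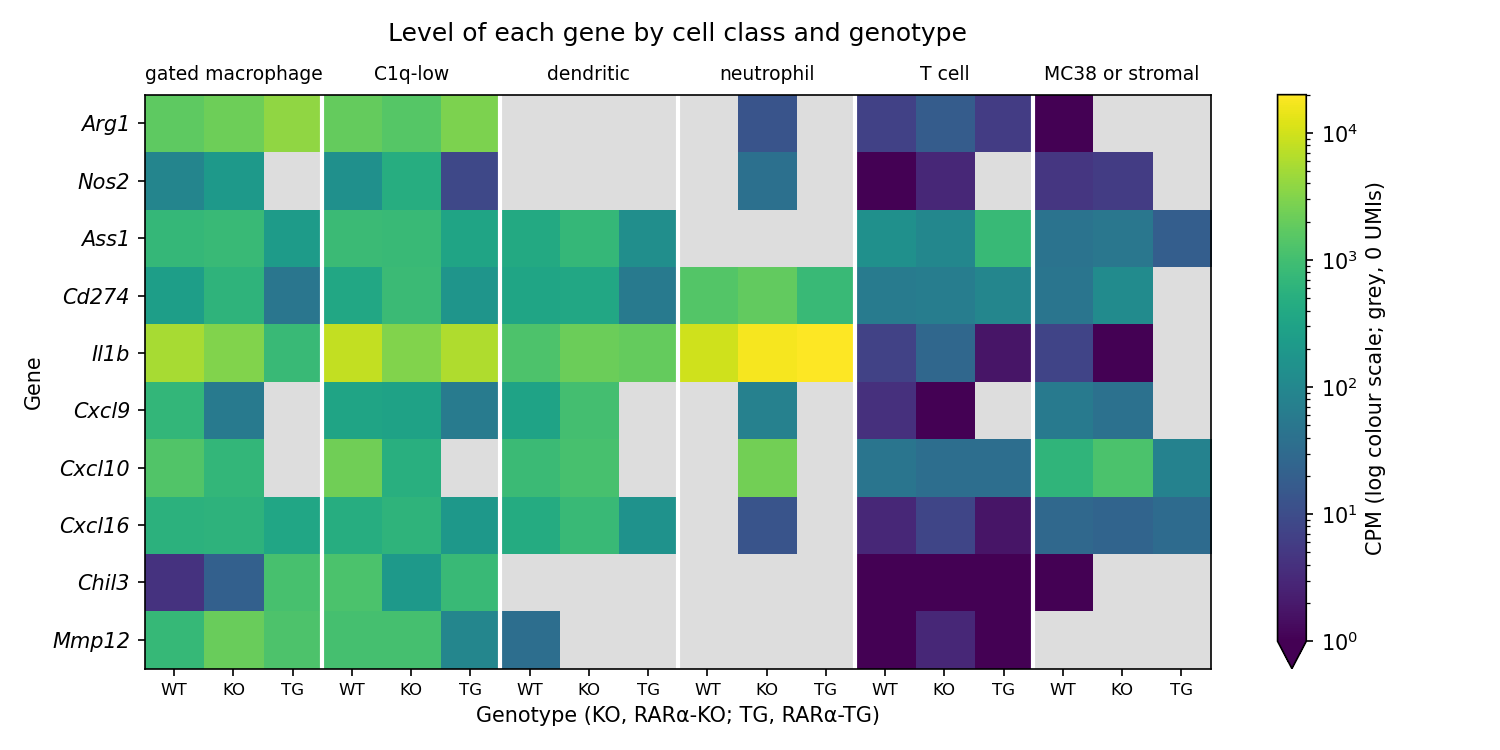
CPM (log colour scale, grey for 0 UMIs) of the 10 genes in 6 cell classes, with WT, RARα-KO and RARα-TG side by side in each. Arg1, Nos2 and Mmp12 are high in the macrophage cluster alone, Il1b is highest in neutrophils, and Ass1 reaches 794 CPM in RARα-TG T cells.

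The dendritic class joins a cluster led by H2-Eb1, H2-Aa and Cst3, with Ccl22 and Cd83 among its leading genes, and a cluster led by Ly6d and Siglech. Its makeup differed, since the first cluster held 19 of 46 WT, 27 of 36 RARα-KO and only 4 of 17 RARα-TG dendritic cells. Summed dendritic markers were 5311 CPM for WT, 7177 CPM for RARα-KO and 3311 CPM for RARα-TG, with 12, 12 and 10 of 12 detected and Xcr1 and Itgae at 0 UMIs in RARα-TG. Over the whole class Cd274 was 344 CPM for WT, 384 CPM for RARα-KO and 57.6 CPM for RARα-TG, a RARα-TG log2 ratio of -2.58 (-3.92 to -1.50). Ass1 was 406, 724 and 132 CPM, and Cxcl16 was 445, 827 and 156 CPM. Cxcl9 was 318 CPM in WT and 1032 CPM in RARα-KO, a ratio of 1.70 (1.39-2.01) that ran against the one in gated macrophages. Cxcl10 was 839 CPM and 1121 CPM. Both chemokine genes had 0 UMIs in RARα-TG dendritic cells, for ratios of at most -3.69 and -5.09. The cluster led by Ly6d and Siglech had 0 UMIs of Cxcl9, Cxcl10 and Cxcl16 in every genotype, so makeup moved with these values. In the cluster led by H2-Eb1, Cd274 was 634 CPM (529-752) for WT, 478 CPM (396-572) for RARα-KO and 207 CPM (83.1-426) for RARα-TG. Cxcl9 there was 599 CPM (498-715) in WT and 1294 CPM (1157-1443) in RARα-KO, and the 4 RARα-TG cells had 0 UMIs of Cxcl9 and Cxcl10, which allows up to 109 CPM.

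Neutrophils, of which there were 10, 37 and 10 with median depths of 1692, 2059 and 1552 UMIs, carried Il1b at 9631 CPM (8314-11098) in WT cells, 17619 CPM (16693-18583) in RARα-KO cells and 21978 CPM (19824-24303) in RARα-TG cells. Cd274 in them was 1412 CPM for WT, 1887 CPM for RARα-KO and 810 CPM for RARα-TG. Cxcl10 was 2407 CPM in RARα-KO neutrophils and had 0 UMIs in the other genotypes, where up to 186 CPM in WT and 213 CPM in RARα-TG were allowed.

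MC38 or stromal cells numbered 276, 124 and 20 and carried Cxcl10 at 651 CPM in WT cells, 1231 CPM in RARα-KO cells and 80.1 CPM in RARα-TG cells, with log2 ratios of 0.92 and -3.02. Cd274 was 47.1 CPM in WT and 121 CPM in RARα-KO, a ratio of 1.36, and had 0 UMIs in RARα-TG, for a ratio of at most -2.29. Cxcl9 had 0 UMIs in RARα-TG as well, against 58.0 CPM in WT and 39.7 CPM in RARα-KO. The lower Cd274, Cxcl9 and Cxcl10 of RARα-TG was thus seen in macrophages, MC38 or stromal cells and, with 4 RARα-TG cells of the cluster that carried these chemokines, dendritic cells of the same sample.

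Ass1 behaved otherwise in T cells, where it was highest in RARα-TG. It measured 145 CPM (136-153) for WT, 99.3 CPM (92.9-106) for RARα-KO and 794 CPM (762-827) for RARα-TG T cells, with a UMI in 32.3%, 25.1% and 71.5% of 1306, 1461 and 662 cells. After thinning these shares were 19.99%, 13.2% and 60.2%. The log2 ratio was 2.46 (2.35-2.56) for RARα-TG and -0.54 for RARα-KO. T cells with Cd8a or Cd8b1 UMIs and no Cd4 UMI had 48.3 CPM (42.8-54.3) for WT, 52.9 CPM (47.6-58.5) for RARα-KO and 314 CPM (273-359) for RARα-TG. Those with Cd4 and no Cd8 UMI had 444 CPM (404-487), 293 CPM (264-324) and 976 CPM (921-1034). The excess in RARα-TG was therefore present in both kinds of T cell, and the RARα-TG T cells also held more Cd4 cells, 242 against 138 with Cd8 UMIs, where WT had 196 against 872. Free RNA held Ass1 at 226 CPM, above its level in WT T cells.

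The receptors of these ligands were read in T cells of the same tumors. Cxcr3, the receptor of the Cxcl9 and Cxcl10 products, measured 52.4 CPM in WT cells, 79.1 CPM in RARα-KO cells and 62.6 CPM in RARα-TG cells, and Cxcr6, that of the Cxcl16 product, 498, 653 and 265 CPM. Pdcd1, which encodes PD-1, was 638, 397 and 235 CPM. Free RNA held Cxcr3 at 37.7 CPM, Cxcr6 at 168 CPM and Pdcd1 at 174 CPM. These receptor levels pool T cells with Cd4 and with Cd8 UMIs, whose mix differed between genotypes. The part of that mix in them was not tested. In T cells Cd274 itself was 61.6, 65.7 and 93.2 CPM, close to the 72.6 CPM of free RNA.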

How the data were processed

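The authors sequenced 1 pooled 5′ droplet library with antibody hashtags and T cell receptor reads, mapped it to mm10 (GRCm38), and deposited the UMI count of every gene in all barcodes, without normalization or a list of cells. The submitters' processing notes name Cell Ranger 6.1.0. From these counts, 5585 cells were called among 730308 barcodes: 2433 by depth with 3000 expected cells, and 3152 of 3167 further barcodes with 500 or more UMIs that differed from the ambient profile (barcodes ranked 45000 to 90000, false discovery rate 0.01). They held 96.4% of 46394322 gene UMIs, and the methods of the study name a larger number of cells. Hashtags were called with HTODemux of Seurat 5.3.0 (quantile 0.99) in R 4.3.3, which gave 1927 WT, 2103 RARα-KO and 895 RARα-TG cells, 426 doublets and 234 negative cells, and the last 2 kinds were left out. Doublets within 1 genotype remain.

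Cells were clustered with scanpy 1.11.5 (30 components, Leiden resolution 1), and classes other than T cells were named from listed markers. Thinned levels and shares are expected values over draws of 2000 UMIs per cell, without shallower cells. A genotype with 0 UMIs was set to a floor of 3. Ratios and intervals used Python 3.11.15, numpy 2.4.6, scipy 1.17.1 and pandas 2.3.3, and were tested on simulated data. Clonotypes defined the T cell class, whose cells were left out of the other classes. Clusters where over 50% of barcodes had a clonotype were named as T cells. The T cell class therefore held 14 cells of the macrophage cluster, 2 WT, 11 RARα-KO and 1 RARα-TG. The 10 genes were named in full, other genes by list, and genes like Arg1 or Nos2 by the 5 highest rank correlations. Members and lists were chosen with earlier results of these data known.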

Additional observations from a re-analysis of the deposited data

Results flagged for a closer look

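In 4 cases a difference from WT that was called in another cell class ran against one that was called in gated macrophages. Opposite signs where 1 of the pair was not called are not counted, such as Cxcl10 in RARα-KO. These differences between classes were not tested, since each genotype was 1 sample. Ass1 in RARα-TG had a log2 ratio of 2.46 in T cells, whose makeup by cluster differed between genotypes, and -1.67 in macrophages. Il1b in RARα-TG had a ratio of 1.19 (0.94-1.45) in neutrophils, of which 10 were found in each of WT and RARα-TG, and -2.74 in macrophages. Cxcl9 in RARα-KO had a ratio of 1.70 in dendritic cells and -3.61 in macrophages, where 3 WT cells held most of its UMIs. The dendritic cluster that carries Cxcl9 held 19 of 46 WT and 27 of 36 RARα-KO dendritic cells, and its Cxcl9 was 599 CPM in WT and 1294 CPM in RARα-KO. Mmp12 in RARα-KO had 0 UMIs in dendritic cells, for a ratio of at most -1.92 against a WT level of 36.2 CPM, and a ratio of 1.45 in macrophages. That WT dendritic level lay below the 52.7 CPM of Mmp12 in free RNA.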

How the results depend on the processing

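Of the 12 called ratios, 12 stayed called with a stricter gate (10 C1q and 6 Lyz2 UMIs), without the top cell of each gene, without cells with T cell transcripts, with cells taken as barcodes of 1000 or more UMIs, and without mitochondrial, ribosomal and receptor genes in the total, 11 with hashtags led 3-fold, 10 with means of per-cell CPM, 9 in the whole macrophage cluster, 7 after thinning, 7 in C1q-low cells and 7 in these without the top cells. Nos2 in RARα-TG and Chil3 in RARα-KO lay under the floor in both groups after thinning and gave no ratio. The count called higher in RARα-KO was 0 after thinning. The count called lower in RARα-KO was 4 in the cluster (Chil3, Il1b, Cxcl9 and Cxcl10), 3 in C1q-low cells with or without their top cells, 3 with hashtags led 3-fold, and 2 (Cxcl9 and Cxcl10) with the total without mitochondrial, ribosomal and receptor genes, without cells with T cell transcripts, without top cells and for gated cells within the cluster. The count called higher in RARα-TG was 0 in the cluster, where Arg1 had 0.81 and Chil3 0.43, 0 in C1q-low cells with or without their top cells, and 1 after thinning (Chil3). Mmp12 in RARα-TG was 1.14 and called with hashtags led 3-fold. Of the 12 called ratios, the signs of Chil3 in RARα-TG (-0.57) and Mmp12 in RARα-KO (-0.0063) turned in C1q-low cells. The first rested on 1 WT cell (0.60 without the top cells), and the second was -0.011 without them. Of ratios not called in the gate, Mmp12 in RARα-TG turned from 0.74 to -3.52 and Chil3 in RARα-KO from 2.28 to -2.51. Arg1 (0.38 to -0.37) and Ass1 (0.18 to -0.03) in RARα-KO turned as well. The share with Arg1 among cells without Nos2 was 49.7% in the cluster and 41.4% in C1q-low cells. The cause of these shifts was not tested. With hashtags required to hold 90% of a cell's hashtag UMIs, 25 RARα-KO, 6 RARα-TG and 0 WT macrophages remained. No ratio to WT could thus be had. WT macrophages, the reference of every ratio, held more UMIs of other hashtags than this limit allowed. The part of this in the ratios was not tested. The cluster, per-cell mean, thinning and top-cell settings were planned, and both C1q-low settings, the within-cluster and 3-fold hashtag settings were added after seeing the data.

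With 11 RARα-TG macrophages, a gene at 0 UMIs could still be present at 29.6 CPM or in 28.5% of cells, and most levels rest on a few cells. No paired analysis was possible because each genotype was 1 sample and no test was made.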
